A study of Fragaria hybrid cultivar with 9 samples.

Results

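The miR482 superfamily was followed through 3 stages of petal development in the pink-flowered strawberry cultivar Sijihong, which the labels describe as an interspecific hybrid of Fragaria and Potentilla. Members were the table entries whose names carry the family number of miR482, miR472, miR1507, miR1510 or miR2118, with fully repeated rows dropped and each sequence counted once. This rule gave 63 sequences of 1660 in the table, of which 43 carried the name miR482, 10 miR2118, 6 miR1510, 4 miR1507 and 0 miR472. Petals were taken from young buds (PF_L), at the onset of coloration (PF_Z) and from big buds (PF_D) of plants grown in open ground without further treatment, with 3 biological replicates and therefore 3 small RNA libraries per stage. The petals were whole organs, so fewer cells of a type and less RNA per cell cannot be told apart.

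The word superfamily is used here for all entries taken by the name rule. miR482 and miR2118 pair with the stretch of NLR mRNAs that encodes the P-loop, a motif that binds ATP in these intracellular immune receptors. The 22-nt forms are known in other plants, such as legumes and tomato, for starting the production of phased secondary siRNAs from the cleaved NLR transcript, whereas 21-nt miRNAs usually cleave without this second step. In miR482 and miR2118 the functional strand comes from the 3p arm of the hairpin, and the 5p arm gives the partner strand.

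The sequences that held most of the reads are shown first, because nearly all the signal of the superfamily came from a pair of them. They are given 5′ to 3′ as DNA letters, as in the table, and the capitals mark the seed (bases 2 to 8).
gra-MIR482-p3_1ss20TG: tCTTTCCAattcctcccatgcc
mdm-miR482b_2ss11CT20TC: tCTTTCCTattcctcccatccc
ppe-MIR482e-p5_2ss15CA21AT: cATGGGAAgtttggaaagaat
mtr-MIR1510a-p3_2ss5AT22CA: tCTTTCCCattcctcccatcca
mtr-MIR2118-p5_2ss3AT18TA: tTTCCGATtccacccatacc
stu-miR482b-3p_2ss12CT17TA: tTACCGATtcctcccaatccaa
gma-MIR1507c-p3_2ss18TG20AG: tCATTCCAaacatcatcgagc
The prefix of each name gives the plant whose database entry was closest. The digit before ss gives the number of substitutions against that entry, and the suffix after ss gives their positions and bases. Only 3 members had the unmodified name of an entry, so a member's name tells which foreign miRNA it resembles rather than which strawberry gene it came from.

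Members differed from the rest of the table in length and in first base. Of the 63 members, 35 (55.6%) were 22 nt long, against 154 of 1597 other sequences (9.64%). A further 10 members had 21 nt, 6 had 20 nt, 4 had 19 nt, 6 had 18 nt, 1 had 23 nt and 1 had 24 nt. The first base was T in 46 members (73.0%), against 502 of the others (31.4%).

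The 3′ part of the sequence was shared more widely than the seed. Names follow the closest database entry, so likeness in sequence among members is in part built into the naming rule. The motif CCCATNCC, searched on both strands, was found in 39 members (61.9%), against 3 of the other 1597 sequences (0.188%) and 42 of all 1660 (2.53%). In 37 members it read in the sense shown above, and in 2 it was present as its reverse complement. The shorter CCCAT, which lies within it, was in 41 members as read, 4 more held its reverse complement ATGGG alone, and 18 held neither. Those 18 included all 4 entries named miR1507.

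Seeds divided the superfamily further. The seed CTTTCCA was shared by 11 members, led by gra-MIR482-p3_1ss20TG, and held 70.7% of the mean signal of all members. CTTTCCT was shared by 5 members, led by mdm-miR482b_2ss11CT20TC, with 28.4%. The third position went to ATGGGAA, which belongs to ppe-MIR482e-p5_2ss15CA21AT alone and held 0.537%. Every other seed held 0.147% or less.

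In the deposited values, called normalized reads here, the most abundant member was among the leading small RNAs of the petal. gra-MIR482-p3_1ss20TG averaged 162102 ± 30328 normalized reads at PF_L, 121781 ± 28603 at PF_Z and 125862 ± 11462 at PF_D (SD, n = 3 each). It ranked 2, 2 and 2 among all listed sequences in the PF_L libraries, 3, 3 and 2 in PF_Z and 5, 4 and 5 in PF_D. mdm-miR482b_2ss11CT20TC averaged 63927 ± 15089, 47777 ± 12227 and 53086 ± 3805 normalized reads across the stages PF_L, PF_Z and PF_D. The pair differ at positions 8 and 20, counted from the 5′ end of gra-MIR482-p3_1ss20TG, by A8T and G20C, so they differ in the last base of the seed. Their ratio was 2.30 to 2.84 in the 9 libraries, and together they made up 98.6% to 99.2% of the summed member signal.

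**Figure D1:**
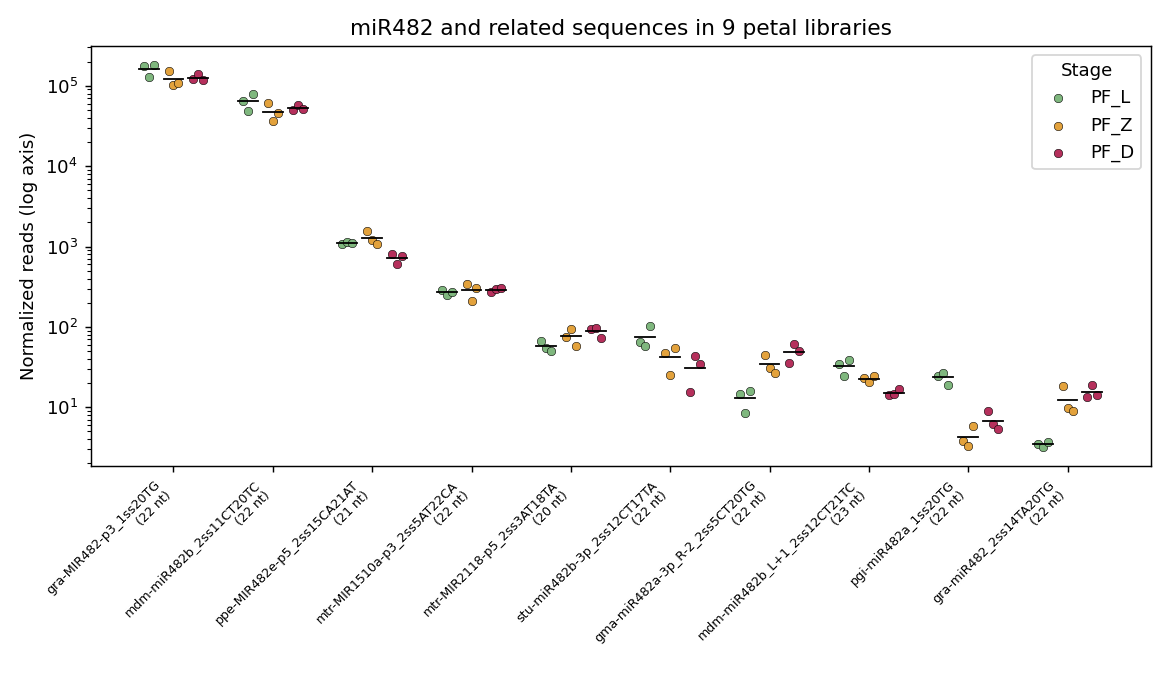
Normalized reads (log axis) of 10 members in the 9 libraries, with 3 points per stage (PF_L, PF_Z, PF_D) and a black bar for each stage mean. The leading pair lies far above the other members in every library, and ppe-MIR482e-p5_2ss15CA21AT follows.

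Summed over all members, the signal was 243456, 177902 and 262540 normalized reads in the PF_L libraries, 217839, 141046 and 156137 in PF_Z, and 172999, 198083 and 170762 in PF_D. The PF_D mean was 0.792 times the PF_L mean, and the single libraries of PF_D and PF_L overlapped. As a share of all listed sequences, members held 26.2%, 20.1% and 25.9% in PF_L, 18.2%, 15.8% and 19.8% in PF_Z, and 14.1%, 15.9% and 13.2% in PF_D. By share, all PF_D libraries lay below all PF_L libraries. The summed values of all listed sequences were not equal between libraries, and the direction of the total turned with the scaling: PF_D over PF_L was 0.599 with library totals set equal and 1.20 with values scaled to the valid reads of each library. No test was made on a sum over members.

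**Figure D2:**
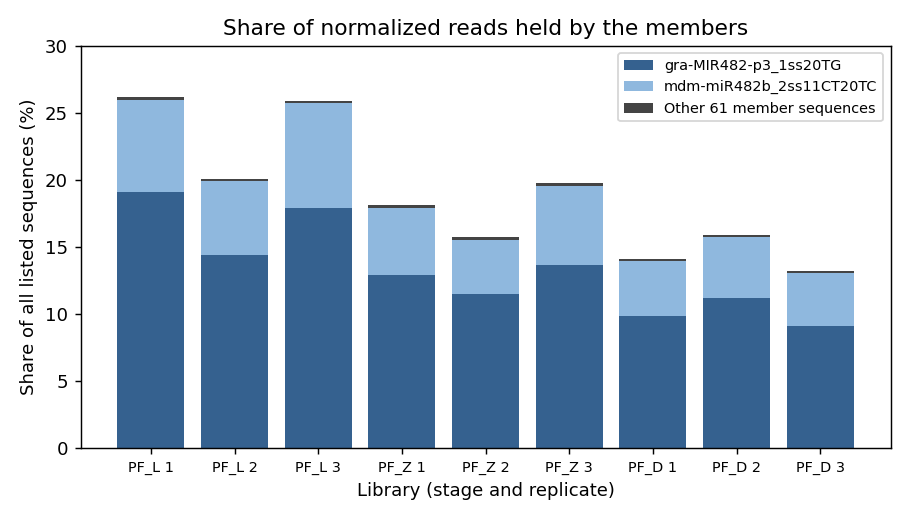
Share of the normalized reads of all listed sequences (%) held by the 2 most abundant members and by the other 61 member sequences in each library, from PF_L through PF_Z to PF_D. The total bar spans 20.1% to 26.2% at PF_L, 15.8% to 19.8% at PF_Z and 13.2% to 15.9% at PF_D.

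The 22-nt forms held 99.0% to 99.6% of the member signal in all libraries, and the difference between PF_D and PF_L was 0.031 percentage points. Among all listed 22-nt sequences, members held 82.6%, 79.9% and 76.6% in PF_D, against 89.8%, 87.6% and 90.7% in PF_L. In PF_Z the share was 88.9%, 85.5% and 85.8%. The listed 22-nt class was mostly miR482 at every stage, and the PF_D libraries lay below the PF_L libraries.

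The shorter forms were scarce. Members of 21 nt, mostly ppe-MIR482e-p5_2ss15CA21AT, summed to 831, 622 and 791 normalized reads in PF_D, against 1093, 1167 and 1116 in PF_L. For this length all PF_D libraries lay below all PF_L libraries. Members of 20 nt summed to 161, 160 and 152 normalized reads in PF_D, against 97.5, 101 and 97.7 in PF_L. The 18-nt members summed to 55.4, 33.3 and 33.0 in PF_D, against 11.03, 9.99 and 13.6 in PF_L. For the 20-nt and 18-nt members the PF_D libraries lay above the PF_L libraries, while for the 19-nt members the stages overlapped. The largest 18-nt member, gra-miR482_L-4_1ss20TG, is the 3′ part of gra-MIR482-p3_1ss20TG and stood at 24.3, 12.2 and 15.4 per 100000 of it in PF_D, against 3.48, 4.21 and 5.00 in PF_L. It did not pass the test (limma, adjusted p = 0.0689).

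Stages were compared for each sequence with limma on log2(value + 1), so a fold change is on that scale and understates the change of scarce sequences. The test covered the 1511 sequences above 0 in at least 3 libraries, 60 members among them, and sequences were called at a p below 0.05 after Benjamini-Hochberg adjustment. The members left out were aqc-MIR482c-p5_1ss18TA, mdm-miR482c_L-3R-1_2ss11CT20TC and ptc-miR482d-3p_R-2_1ss8CT, and 13 of the 63 never exceeded 3 reads in a library. Between PF_D and PF_L, 8 of 60 members (13.3%) were called, 3 higher and 5 lower, against a background of 15.8% of all tested sequences (7.48% higher and 8.27% lower). The share of members called was thus close to that of the table. At an unadjusted p under 0.05 there were 19 members (31.7%), against 30.9% of all tested sequences. Of the members, 31 (51.7%) had a log2 fold change above 0, against 38.5%. The median log2 fold change was 0.10 over the members and -0.30 over all tested sequences. With library totals set equal these medians were -0.14 and -0.53, and with scaling to valid reads 0.51 and 0.02, so the median of the members changed sign with the scaling. The other scalings also changed the calls, to 11 (2 higher and 9 lower) with equal totals and 15 (14 higher and 1 lower) with valid reads. All tested sequences moved the same way: 257 of 1511 were called with equal totals, 28.0% of them higher, and 272 with valid reads, 77.6% of them higher, against 238 with 47.5% higher on the deposited scaling. The count of members was 2 without PF_L 1, 3 without PF_L 3, PF_D 1 or PF_D 3, and 5 without PF_D 2.

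The leading pair did not pass the test between PF_D and PF_L. For gra-MIR482-p3_1ss20TG the 3 libraries gave 120565, 139015 and 118005 normalized reads in PF_D, against 177681, 127151 and 181475 in PF_L. The PF_L 2 library lay within the PF_D range, and the log2 fold change was -0.35 ± 0.25 (SE; limma, adjusted p = 0.357). With equal library totals it was -0.76 (adjusted p = 0.00447), and scaled to valid reads it was 0.25 (adjusted p = 0.678). mdm-miR482b_2ss11CT20TC had a log2 fold change of -0.24 ± 0.25 (SE; limma, adjusted p = 0.537), of -0.66 with equal totals (adjusted p = 0.0214) and of 0.36 with valid reads.

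Among the members called lower in PF_D, stu-miR482b-3p_2ss12CT17TA had the most signal. It lacks the CCCAT motif and has the seed TACCGAT, which it shares with mdm-miR2118a. It had 15.3, 44.0 and 34.1 normalized reads in PF_D, against 64.4, 57.8 and 102 in PF_L, without overlap. The log2 fold change was -1.32 ± 0.41 (SE; limma, adjusted p = 0.0361). This call was lost with valid-read scaling and without PF_L 1, PF_L 3, PF_D 1 or PF_D 3, where adjusted p reached 0.266.

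mdm-miR482b_L+1_2ss12CT21TC, the 23-nt form that adds 1 base to the 5′ end of mdm-miR482b_2ss11CT20TC, also fell. It had 14.02, 14.7 and 17.1 normalized reads in PF_D, against 34.8, 24.3 and 39.2 in PF_L, a log2 fold change of -1.03 ± 0.33 (SE; limma, adjusted p = 0.0448). Set against its 22-nt form, it stood at 27.6, 25.5 and 33.4 per 100000 in PF_D and at 54.6, 49.6 and 49.6 in PF_L, so the extended form was lower also relative to the main one. The call was lost in 8 of 19 alternatives, among them the replicate block (adjusted p = 0.0502), and the highest adjusted p was 0.416.

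mdm-miR482a-5p_L-1 is a 5p-arm form whose first 9 bases match the reverse complement of several 3p members. It was listed at 0 in all 3 PF_D libraries and all 3 PF_Z libraries, against 1, 4 and 3 reads in PF_L, and is 1 of the 5 members called lower in PF_D. It passed the filter of 3 libraries above 0 only through PF_L, the stage where it was high, so the call is no support for a difference. Leaving out any 1 PF_D library ended the call, leaving out any 1 PF_L library removed it from the test, and at so few reads no fold is given. mtr-MIR2118-p5_2ss14TA18AC, an 18-nt form, was called higher on 5, 5 and 9 reads in PF_D, against 1, 4 and 1 in PF_L (limma, adjusted p = 0.0431). This 18-nt form lies whole within PC-3p-64_35261, a predicted miRNA described below that was not called. The call of the 18-nt form was lost with equal totals, under the replicate block (adjusted p = 0.0533) and without any 1 of PF_L 1, PF_L 3 or the PF_D libraries.

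The other 4 called members are single substitutions of gra-MIR482-p3_1ss20TG. All 11 members 1 base away from it were therefore expressed per 100000 of it within each library, a measure that does not depend on the scaling. Whether such 1-base variants were transcribed from separate loci or arose as sequencing errors was not tested. The called variants and the parent are shown with the changed base in capitals.
gra-MIR482-p3_1ss20TG: tctttccaattcctcccatgcc
gma-miR482a-3p_R-2_2ss5CT20TG: tctttccaattccGcccatgcc
gra-miR482_2ss14TA20TG: tctttccaattccAcccatgcc
pgi-miR482a_1ss20TG: tcttGccaattcctcccatgcc
gra-miR482_2ss11TA20TG: tctttccaatAcctcccatgcc
Changes are written with the base of gra-MIR482-p3_1ss20TG first, its position from the 5′ end, then the base of the variant.

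Both variants of position 14 rose. gma-miR482a-3p_R-2_2ss5CT20TG (T14G) had 35.0, 60.4 and 50.1 normalized reads in PF_D, against 14.6, 8.56 and 16.1 in PF_L, a log2 fold change of 1.83 ± 0.36 (SE; limma, adjusted p = 0.00245). gra-miR482_2ss14TA20TG (T14A) had 13.4, 19.2 and 14.4 in PF_D, against 3.53, 3.21 and 3.71 in PF_L, a log2 fold change of 1.88 ± 0.42 (SE; limma, adjusted p = 0.00616). These were the 2 members whose call held in all 19 alternatives, including every left-out library and scaling. T14A rested on few reads, 10.5, 17 and 13.5 in PF_D, against 4, 4.5 and 4.5 in PF_L.

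At positions 5 and 11, the variants T5G and T11A fell. T5A (gra-miR482_2ss5TA20TG) and T11C (mdm-miR482b_2ss8TA20TG) at the same positions were not called (limma, adjusted p = 0.317 and 0.135). pgi-miR482a_1ss20TG (T5G), whose changed base lies in the seed, had 8.92, 6.21 and 5.33 normalized reads in PF_D, against 24.7, 26.8 and 19.0 in PF_L (log2 fold change -1.66 ± 0.41, SE; limma, adjusted p = 0.0118). The call was lost with valid-read scaling and without PF_L 1 or PF_L 2 (highest adjusted p 0.0842). gra-miR482_2ss11TA20TG (T11A) had 0.637, 3.95 and 0.533 in PF_D, against 7.94, 7.13 and 14.4 in PF_L (log2 fold change -2.17 ± 0.64, SE; limma, adjusted p = 0.0292). These values rest on 0.5, 3.5 and 0.5 reads in PF_D, against 9, 10 and 17.5 in PF_L, so the size of the fold is uncertain. The T11A call was lost with valid-read scaling and without PF_L 1, PF_L 3, PF_D 1 or PF_D 3 (highest adjusted p 0.129).

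Relative to the parent, the variants differed in direction. T14G averaged 7.93 per 100000 at PF_L, 28.1 at PF_Z and 38.3 at PF_D, and T14A averaged 2.19, 9.92 and 12.4. G20C (gra-miR482_1ss20TC) averaged 25.9, 44.1 and 52.6, and G20T (mdm-miR482b_2ss8TA11CT) 40.3, 58.8 and 64.5. By contrast T5G averaged 15.1, 3.66 and 5.46, T11A 6.01, 1.45 and 1.27, and C13T (gra-miR482_2ss13CT20TG) 11.9, 5.93 and 7.13. In 4 of the 11 variants all PF_D libraries lay above all PF_L libraries, in 3 all lay below, and in 4 they overlapped. All 11 share the same denominator, and they were chosen after their values were seen. How often other sequences separate in this way was not counted, so these counts only describe the variants. A8T, which joins the seed of the second member to the 3′ end of the first, averaged 10.2 in PF_L and its PF_D libraries of 13.2, 8.93 and 8.58 spanned that level.

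**Figure D3:**
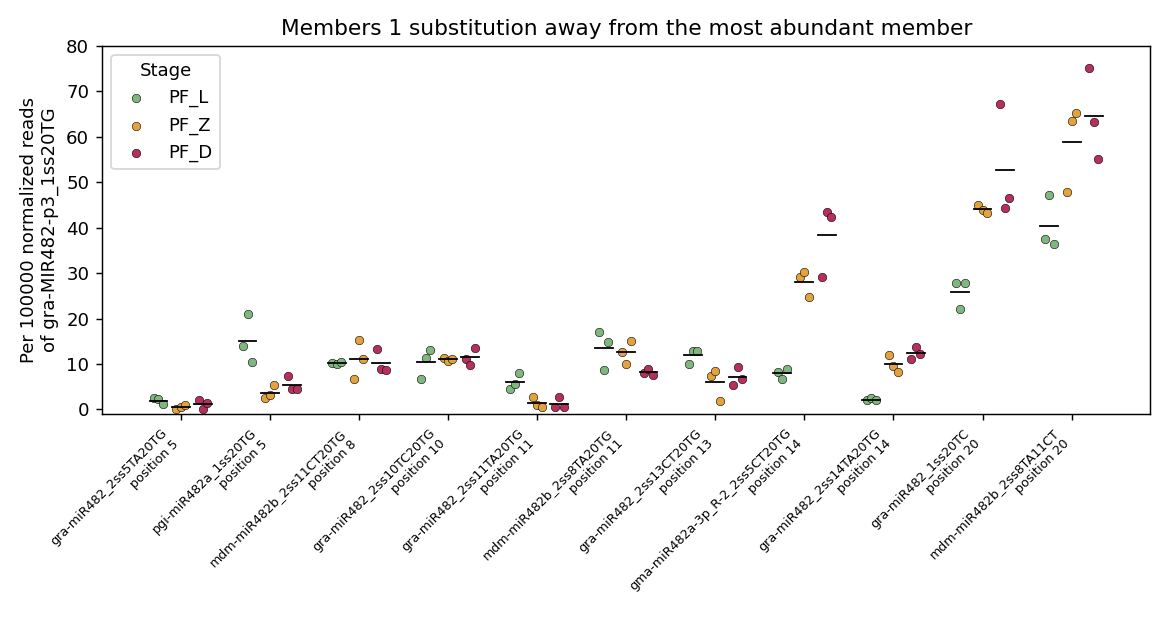
Normalized reads per 100000 of gra-MIR482-p3_1ss20TG for the 11 members 1 substitution away from it, ordered by the position of the substitution, with 3 points per stage and a black bar for the stage mean. Both variants of position 14 are higher in all PF_Z and PF_D libraries than in PF_L, and pgi-miR482a_1ss20TG at position 5 is lower.

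Between PF_Z and PF_L, 1 of 60 members (1.67%) was called, against 1.13% of all tested sequences (0.529% higher and 0.596% lower). It was pgi-miR482a_1ss20TG, with 3.80, 3.27 and 5.77 normalized reads in PF_Z, against 24.7, 26.8 and 19.0 in PF_L (log2 fold change -2.23 ± 0.41, SE; limma, adjusted p = 0.00854). It was lost without PF_L 1 or PF_L 2, where 0 members were called. The position 14 variants had log2 fold changes of 1.34 and 1.51 in this comparison and did not pass (limma, adjusted p = 0.0846 for gma-miR482a-3p_R-2_2ss5CT20TG and 0.0994 for gra-miR482_2ss14TA20TG). At an unadjusted p under 0.05 there were 9 of 60 members, against 13.5% of all tested sequences, and 31 (51.7%) had a log2 fold change above 0, against 44.3%.

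Between PF_D and PF_Z, limma called 0 of 60 members, against 3.11% of all tested sequences (2.32% higher and 0.794% lower). At an unadjusted p under 0.05 there were 5 members (8.33%), against 19.1%. Of the members, 42 (70.0%) had a log2 fold change above 0, against 42.7% of all tested sequences. ppe-MIR482e-p5_2ss15CA21AT was called lower in PF_D with equal totals, with a mean of at least 5 and without PF_Z 3 or PF_D 1, and csi-MIR482b-p5_2ss12CG17CT, at 0 in all PF_D libraries, with valid-read scaling and without PF_Z 3. The 3 comparisons share libraries, so they are not independent.

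The 5p arm was followed with ppe-MIR482e-p5_2ss15CA21AT, a 21-nt 5p form that carries ATGGG. It shares the 9-base run ttggaaaga with the reverse complement of gra-MIR482-p3_1ss20TG. The same run was shared with mdm-miR482b_2ss8TA11CT and gra-miR482_1ss20TC, and a run of 10 bases with gra-miR482_2ss10TA20TC. Which 3p form it pairs with in a hairpin was not analysed. ppe-MIR482e-p5_2ss15CA21AT had 1081, 1152 and 1103 normalized reads in PF_L, 1559, 1201 and 1077 in PF_Z, and 808, 600 and 759 in PF_D. All PF_D libraries lay below all libraries of the other stages. Neither contrast passed: the log2 fold change was -0.63 ± 0.22 against PF_L (SE; limma, adjusted p = 0.0643) and -0.82 ± 0.22 against PF_Z (SE; limma, adjusted p = 0.0540). The adjusted p of the contrast with PF_L was 0.00305 with equal totals and 0.957 with valid-read scaling. The leading 3p form exceeded it 164, 110 and 165 times in PF_L, 99.2, 85.6 and 100 times in PF_Z, and 149, 232 and 156 times in PF_D. Among the members, 27 names gave a 3p arm, 9 a 5p arm, 3 both and 24 none. Since 4 members named 5p hold CCCAT, the arm in the name and the sequence do not always match. Named 3p forms held 69.9% of the member signal in PF_D and 71.4% in PF_L, a difference of -1.46 percentage points, which was 0.092 when the arm was read from the sequence instead.

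The families other than miR482, as given by the names, were far less abundant. miR1510 summed to 324, 344 and 355 normalized reads in PF_D, against 309, 276 and 301 in PF_L. Most of it was the 22-nt mtr-MIR1510a-p3_2ss5AT22CA, at 272, 296 and 307 in PF_D and 288, 247 and 273 in PF_L, where the stages overlapped (log2 fold change 0.11 ± 0.24, SE; limma, adjusted p = 0.782). This 22-nt sequence is 2 substitutions (T8C and C22A) from mdm-miR482b_2ss11CT20TC, so its family rests on the name. Its 20-nt relative mtr-MIR1510a-p5_1ss3AT had 42.7, 36.1 and 40.0 in PF_D, against 12.8, 22.1 and 18.6 in PF_L, without overlap. It missed the threshold (log2 fold change 1.14 ± 0.41, SE; limma, adjusted p = 0.0662) and was called under 5 of 19 alternatives. mtr-MIR1510a-p3_1ss5AC, mtr-MIR1510a-p3_2ss15CA21TA and gra-MIR482c-p5_2ss10AT17AC were each listed under 2 names, one for each arm, with identical values, and were counted once. mtr-MIR1510a-p3_1ss5AC is also 2 substitutions (T5C and T8C) from mdm-miR482b_2ss11CT20TC.

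miR1507, known from legumes as a trigger of secondary siRNAs on NLR transcripts, was present at the level of single reads to about 25 normalized reads. Its sum was 17.8, 14.1 and 25.05 in PF_D, against 5.29, 6.78 and 6.19 in PF_L. gma-MIR1507c-p3_2ss18TG20AG had 10.2, 10.2 and 14.9 in PF_D, against 3.97, 4.64 and 4.54 in PF_L, and just missed the threshold (log2 fold change 1.23 ± 0.41, SE; limma, adjusted p = 0.0522). Its 4 sequences share runs of 18 to 20 bases, so they are not independent.

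miR2118 summed to 148, 152 and 135 normalized reads in PF_D, against 97.0, 85.2 and 89.1 in PF_L, without overlap. Its largest member, mtr-MIR2118-p5_2ss3AT18TA, had 94.3, 98.2 and 72.5 in PF_D, against 67.0, 53.9 and 50.3 in PF_L (log2 fold change 0.62 ± 0.29, SE; limma, adjusted p = 0.154). It was not called on the deposited scaling, and of 19 alternatives only 1, valid-read scaling, called it (limma, adjusted p = 0.0148). The highest adjusted p among them was 0.682. Before scaling it had 74, 87 and 68 reads in PF_D, against 76, 75.5 and 61 in PF_L, so its rise depends on the scaling. This 20-nt sequence lies whole within a predicted miRNA that the naming rule does not take in, shown here because it is the only other table entry sharing 15 bases or more with a member.
PC-3p-64_35261: tTTCCGATtccacccatacctc
It had 4303, 5091 and 4505 normalized reads in PF_D, against 6214, 4249 and 6261 in PF_L (log2 fold change -0.25 ± 0.22, SE; limma, adjusted p = 0.469). Relative to it, the 20-nt member was 2.19%, 1.93% and 1.61% in PF_D, against 1.08%, 1.27% and 0.803% in PF_L. The short form was thus a larger share of the long one in every PF_D library than in any PF_L library. The 18-nt mtr-MIR2118-p5_2ss14TA18AC, also whole within PC-3p-64_35261, was 0.148%, 0.111% and 0.213% of it in PF_D, against 0.014%, 0.067% and 0.013% in PF_L. Other miR2118 forms were scarcer. osa-miR2118b_R-2_1ss9GA, of 20 nt, had 22.9, 23.1 and 34.1 in PF_D, against 10.6, 18.5 and 20.2 in PF_L (limma, adjusted p = 0.217), and osa-MIR2118b-p3_1ss11GA, which contains it, had 1.91, 6.77 and 9.06 in PF_D, against 5.29, 6.78 and 8.25 in PF_L. In the deposited values the stages did not overlap for the short form and overlapped for the long one. Before scaling the short form overlapped too, with 18, 20.5 and 32 reads in PF_D, against 12, 26 and 24.5 in PF_L. The leading members of the remaining arm and length classes, among them csi-MIR482b-p5_2ss11TA20GA, mdm-MIR482b-p3_2ss9CT19CT, osa-MIR2118e-p3_2ss13TA19CT, mtr-MIR1510a-p3_2ss14AC17CT, ata-miR2118b-5p_L+2R-2, mes-miR2118_1ss1GT, aqc-MIR482c-p3_1ss6GA and gra-MIR482-p3_2ss16AC18TG, had at most 7.42 normalized reads in any library, and none of them was called.

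**Figure D4:**
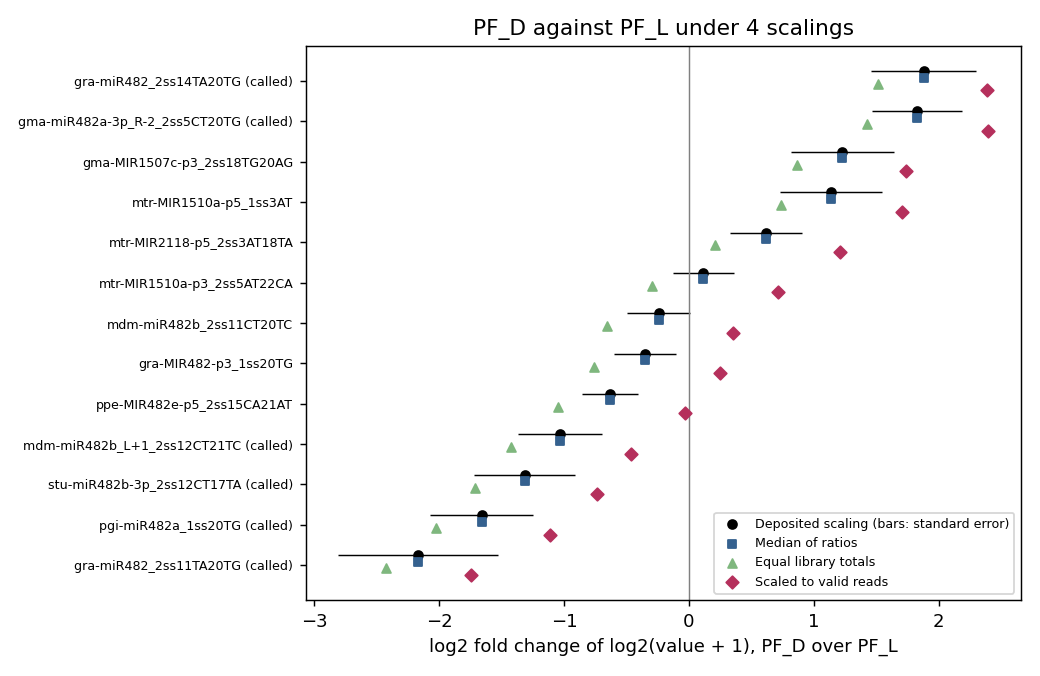
log2 fold change of log2(value + 1), PF_D over PF_L, for 13 members under 4 scalings, with the standard error for the deposited scaling and called members marked. The position 14 variants lie right of 0 under all 4 scalings, while the leading pair lies left of 0 except with valid reads.

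Further miRNA families of related function were scanned with the same test. Of 14 further families known to target NLR genes, 2 (miR2109 and miR1885) were listed, with 1 sequence each. bra-miR1885b had 0, 0 and 3.20 normalized reads in PF_D, against 9.70, 14.98 and 14.85 in PF_L, and was at 0 in all PF_Z libraries. It was among the sequences called lower in PF_D and in PF_Z, but it passed the filter mostly through PF_L, the stage where it was high, so these calls carry little weight. Of 13 further families that trigger phased siRNAs, 7 were listed with 43 sequences. Between PF_D and PF_L, 10 of their 39 tested sequences were called higher and 2 lower, where 7.48% and 8.27% of all tested sequences were. Those called higher were forms of miR393, miR3627 and miR390 only, and forms of 1 family are not independent. miR390 went both ways, since the 2 called lower were mdm-miR390a and ath-miR390a-5p_L+3. mdm-miR390a averaged 20189 normalized reads in PF_L and 3190 in PF_D (log2 fold change -2.72, limma, adjusted p = 1.34e-06). The miR390 form called higher, csi-miR390a-3p_2ss15AG21AC, averaged 626 in PF_L and 1682 in PF_D. mdm-miR393d_L-1R+1_1ss20CA, at 0 in all PF_L libraries, and mdm-MIR393h-p3_2ss18GT19AT passed the filter mostly through PF_D, where they were high. Their calls carry little weight. Between PF_Z and PF_L the same 39 sequences had 1 called higher and 0 lower, beside 0.529% and 0.596% of all tested sequences. Between PF_D and PF_Z they had 4 higher and 1 lower, beside 2.32% and 0.794%. Among those higher was mdm-MIR858-p3, at 0 in all PF_Z libraries. miR162, miR168 and miR403, which regulate the silencing machinery itself, had 0 called higher and 3 lower of 11 tested between PF_D and PF_L, beside the same 7.48% and 8.27%. Of these 3, bra-miR168a-3p was above 0 only in the PF_L libraries and so passed the filter through that stage alone, and htu-miR403a was at 0 in all PF_D libraries. bra-miR168a-3p was also the 1 silencing sequence called lower between PF_Z and PF_L, and between PF_D and PF_Z the further NLR and silencing families had 0 calls.

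A single read was worth 0.713 to 0.882 normalized reads at PF_L, 1.05 to 1.09 at PF_Z and 1.07 to 1.27 at PF_D, so that a value near 1 rests on about 1 read, and the listed sequences held 751798 to 1239877 reads per library. Multiples of 0.5 reads, to within 0.01 reads, made up 98.3% to 99.4% of each library's values above 0. A value of 3 reads, used here as a rough upper limit for a count of 0, was 2.14 to 3.82 normalized reads. Reads carry no molecular identifiers, so such limits cover counting error only.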

How the data were processed

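Small RNA libraries (9, 3 biological replicates at each of 3 stages) were compared. The authors trimmed reads, removed common RNA families and repeats with ACGT101-miR, and searched precursors; they deposited 1 normalized value per miRNA and library (a signal, called normalized reads here), whose formula is not given in the sources used here. The table had 1876 rows, of which 173 repeated another in full, leaving 1703 names and 1660 distinct sequences. Names of 1 sequence had identical values.

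Members were chosen by family number in the name, and the members and lists were chosen with earlier results of these data known. limma 3.58.1 (R 4.3.3, trend) was fitted to log2(value + 1) over all 9 libraries, for sequences above 0 in at least 3, with Benjamini-Hochberg adjustment, two-sided. It was tested on simulated data. Named members were those called, the 8 most abundant, those with more than 1 name and the most abundant of each family, arm and length; PC-3p-64_35261, the single-substitution variants and the miR1507 and 18-nt forms were added after their values were seen. The value of 1 read was the most common value above 0. Valid reads for 1 scaling came from the study's supplement. Alternatives covered the pseudocount, filter, scaling, stages in the fit, names as units, the replicate block and leaving out each library. p-values measure the spread between the replicates. Python 3.11.15, numpy 2.4.6, pandas 2.3.3 and matplotlib 3.10.9 were used. Genome positions and target sites were not analysed here.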

Additional observations from a re-analysis of the deposited data

How the results depend on the processing

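Between PF_D and PF_L the number of called members was 15 scaled to valid reads, and it ranged from 2 to 12 when each library was left out in turn. It was 2 without PF_L 1, 3 without PF_L 3, PF_D 1 or PF_D 3, 5 without PF_D 2 and 12 without PF_Z 1. Between PF_Z and PF_L it was 2 with valid reads and 0 to 1 with a library left out. Between PF_D and PF_Z it was 1 with equal totals, valid reads or a mean of at least 5, and 0 to 2 with a library left out. The member total of PF_D over PF_L was 0.599 with equal totals, 1.20 with valid reads and 0.714 to 0.857 with a library left out. The 22-nt difference was 0.215 percentage points without gra-MIR482-p3_1ss20TG and -0.048 to 0.077 with a library left out, and the 3p difference was -2.50 to -0.566. The log2 fold change turned direction with valid reads for gra-MIR482-p3_1ss20TG (0.25), mdm-miR482b_2ss11CT20TC (0.36) and PC-3p-64_35261 (0.35), and with equal totals for mtr-MIR1510a-p3_2ss5AT22CA (-0.30); the cause was not tested. Of the other values, 279 kept direction and side of the threshold, 33 lost the call and 20 gained it. Same-numbered libraries correlated at -0.02 to 0.12 in their deviations from the stage means, and other pairs across stages at -0.11 to 0.10. Correlations this weak cannot show whether a number marks a shared plant or day, and no label says so. The replicate block called 8 members between PF_D and PF_L (4 higher and 4 lower). Reading the arm from the sequence and adding PC-3p-64_35261 to the member total, both chosen after seeing the data, moved neither value beyond the spread between replicates, although the 3p difference turned to 0.092. Count tests were not run, because the values could not be turned back into whole reads throughout.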
